A study of Mus musculus with 13 samples.

Results

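The genes described here were the cytochrome P450 genes of families 1 to 3, measured in mouse liver. They were taken by symbol, as every gene whose symbol begins with Cyp1, Cyp2 or Cyp3 and a subfamily letter, without symbols ending in -ps, which mark pseudogenes. This gave 58 genes of the 22180 genes with a probe set of their own on the array. Of the 58, 37 passed the filter on dim genes and were tested, and 21 had means below it, between 2.20 and 3.92 on the log2 scale against a limit of 3.95. The tested share was 63.8% of these genes and 60.0% of all genes. A further 3 P450 probe sets that carry several symbols were left out.

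Liver RNA came from male C57Bl/6J mice. They began a diet with 60% fat at an age of 6 weeks. All groups ate it for 4 weeks before treatment, and no group on a lean diet or without the fat diet was among these arrays. For another 4 weeks, the HFD group (n = 4 arrays) stayed on the diet with no treatment, and the CANA group (n = 4) received canagliflozin, at 25 to 30 mg/kg per the sample labels, on that diet. Canagliflozin blocks SGLT2, the glucose carrier of the kidney tubule. The CR group (n = 5) was restricted in calories by 15 to 30% so that its weight matched that of the CANA group. The comparison of CANA with HFD asks what the drug did in obese mice, that of CR with HFD what the restriction did, and that of CANA with CR how the drug differed at matched weight. The labels do not say whether each array was a separate animal, so the tests measure the spread between these samples.

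P450 enzymes of families 1 to 3 sit in the endoplasmic reticulum, where they oxidise drugs, pollutants, steroids, bile acids and fatty acids with electrons from P450 reductase. The liver is their main site, and most are made by hepatocytes around the central vein. Family 1 is switched on through the aryl hydrocarbon receptor AHR, and many genes of subfamilies 2B, 2C and 3A through the nuclear receptors CAR and PXR. In mice several are also set by the sex-dependent pattern of growth hormone, so that Cyp2b9, Cyp2a4 and Cyp3a44 are known as female-biased and Cyp2d9 and Cyp2u1 as male-biased.

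Values are log2 signals after robust multi-array averaging, a method that scales arrays to each other and combines the probes of a gene. A difference of 1 on this scale is a doubling. Levels of different genes are not compared, since each probe set has its own response. The arrays were alike in overall signal, with medians of 4.07 to 4.13 and correlations between pairs of 0.977 to 0.989. The 6 hepatocyte markers, albumin and transthyretin among them, were all tested, with mean levels per array of 12.51 to 12.69. Of the 5 acinar pancreas, 5 kidney tubule and 4 adipocyte markers, 1, 2 and 1 passed the filter. The 4 erythroid markers were not measured. In liver tissue, fewer cells of a type and less RNA per cell cannot be told apart. Many P450 genes are close copies of each other, and probes can bind RNA of a near relative, so single members of subfamilies 2A, 2B, 2C, 2D and 3A are less certain than the rest.

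The sequence before the gene start was looked up for all members in RefSeq (build GRCm38.p6), and 50 of the 58 had an entry. The 250 bases before the start of 4 genes are shown because the results turn on these genes. Cyp2c55 and Cyp2c70 had the lowest differences in CANA, and Cyp2b9 and Cyp2b10 varied together between arrays. Sequences are read 5′ to 3′ in the direction of the gene, and the last base is next to the start. Capitals mark TATAAA in Cyp2c55, AGGTCA, CAAAGTCCA and the reverse complement of TATAAA in Cyp2c70, TTGCNNAA and AGGTCA in Cyp2b9, and GCGTG on either strand and TTGCNNAA in Cyp2b10.
Cyp2c55, chr19:39006769-39007018, plus strand: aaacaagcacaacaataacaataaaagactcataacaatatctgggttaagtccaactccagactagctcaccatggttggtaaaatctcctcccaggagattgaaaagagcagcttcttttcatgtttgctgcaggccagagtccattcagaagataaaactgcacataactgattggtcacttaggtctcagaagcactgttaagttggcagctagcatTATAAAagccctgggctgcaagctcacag
Cyp2c70, chr19:40187287-40187536, minus strand: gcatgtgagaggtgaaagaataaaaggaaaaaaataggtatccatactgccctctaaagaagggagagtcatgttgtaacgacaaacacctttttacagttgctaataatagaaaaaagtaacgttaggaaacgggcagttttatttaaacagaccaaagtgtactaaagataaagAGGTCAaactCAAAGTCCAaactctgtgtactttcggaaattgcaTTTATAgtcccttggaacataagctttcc
Cyp2b9, chr7:26173159-26173408, plus strand: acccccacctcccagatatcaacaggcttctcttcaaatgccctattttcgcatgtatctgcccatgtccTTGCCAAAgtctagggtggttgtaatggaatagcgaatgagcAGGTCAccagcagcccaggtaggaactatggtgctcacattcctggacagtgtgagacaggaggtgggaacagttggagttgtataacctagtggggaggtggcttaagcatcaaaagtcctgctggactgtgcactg
Cyp2b10, chr7:25897408-25897657, plus strand: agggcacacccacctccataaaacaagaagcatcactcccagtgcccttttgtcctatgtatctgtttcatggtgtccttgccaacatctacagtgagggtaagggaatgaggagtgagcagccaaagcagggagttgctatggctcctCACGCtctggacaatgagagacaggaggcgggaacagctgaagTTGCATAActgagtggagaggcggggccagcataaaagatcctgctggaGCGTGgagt

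Over these 250 bases, the promoters of Cyp2b9 and Cyp2b10 shared 71.0% of aligned positions. Cyp2b9 and Cyp2b13, which was below the filter, shared 99.2%, and Cyp2a4 and Cyp2a5 shared 97.6%. Short motifs were searched on both strands, with overlaps allowed, in the promoters of the 50 members and of all 27025 entries. CAAAGTCCA, a form of the motif of HNF4A, a nuclear receptor that hepatocytes depend on, was in 7 of 50 members (14.0%) and in 0.400% of all promoters. TATAAA was in 44.0% of members against 12.9% of all, AGGTCA, a motif bound by nuclear receptors, in 30.0% against 14.0%, and TTGCNNAA, a C/EBP motif, in 24.0% against 9.53%. GTTAAT, a part of the HNF1 motif, was in 12.0% against 6.58%, and AGTTCA, another nuclear receptor motif, in 10.0% against 11.9%. GCGTG, the core of AHR motifs, was in 18.0% against 28.0%, and TTCNNNGAA, a STAT5 motif, in 4.0% against 7.11%. Members are copies of each other, so these shares are not those of independent promoters. The CAAAGTCCA matches lay in 5 genes of subfamily 2C and 2 of 3A, all on the strand of the gene, and 4 of these genes passed the filter. They are shown with 15 bases on either side, with the motif in capitals.
Cyp2c68, chr19:39741155-39741193, minus strand: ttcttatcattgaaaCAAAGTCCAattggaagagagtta
Cyp2c69, chr19:39886821-39886859, minus strand: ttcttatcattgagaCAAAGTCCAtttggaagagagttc
Cyp2c70, chr19:40187327-40187365, minus strand: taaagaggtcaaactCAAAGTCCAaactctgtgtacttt
Cyp3a11, chr5:145879940-145879978, minus strand: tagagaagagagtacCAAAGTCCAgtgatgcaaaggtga

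No member passed an adjusted p of 0.05 (limma, Benjamini-Hochberg over the 13308 tested genes) in any comparison. Of all tested genes, 0.165% passed in CANA against HFD, 0% in CR against HFD and 0.15% in CANA against CR. The 0% of CR against HFD stood beside 498 genes at an unadjusted p under 0.05 in limma and a smallest adjusted p of 0.434. The smallest adjusted p of a member was 0.193 in CANA against HFD, 0.999 in CR against HFD and 0.165 in CANA against CR, the first and last of them for Cyp2c55. The median 95% interval of a member reached 0.40 to either side in CANA against HFD and 0.38 in the others, with no adjustment for the number of genes.

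In CANA against HFD, the median difference of the 37 members was -0.11, with 24 below zero (against 53.9% of all genes), and the median of all tested genes was -0.01. At an unadjusted p under 0.05, 4 members were lower (10.8%, against 5.19% of all genes) and 1 was higher (2.70%, against 3.63%). The arrays of both groups did not overlap for 4 members that were lower in CANA (10.8%, against 2.77% of all genes) and for none that were higher (against 2.13%). Single arrays moved these counts. The 4 lower at an unadjusted p became 7 without HFD array 2, and the 4 without overlap became 7 without HFD array 1. The 1 higher became 2 without CANA array 1 and 0 without CANA array 3 or 4, HFD array 2 or 3, or CR array 1 or 2. The 0 higher without overlap became 1 without HFD array 1 and 2 without HFD array 4, which also moved the median to -0.05.

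In CR against HFD, the median of the members was 0.04, with 13 of 37 below zero (against 53.6% of all genes), and that of all genes was -0.01. At an unadjusted p under 0.05, no member was lower (against 2.01% of all genes) and 2 were higher (5.41%, against 1.73%). No member had arrays without overlap, against 0.721% of all genes lower and 0.451% higher. The median was 0.02 without HFD array 1, 0.12 without HFD array 4, 0.09 without CR array 3 and -0.002 without CR arrays 1 and 5 together. The 2 members that were higher became 1 without HFD array 1 or 3, or CR array 1, 2 or 4, and 1 member was lower without CR array 3. Without HFD array 1 or 2, or CR array 3 or 5, 1 member was higher with no overlap.

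In CANA against CR, the median was -0.16, with 28 of 37 below zero (against 51.2% of all genes), and the median of all genes was 0.00. Here 6 members were lower at an unadjusted p under 0.05 (16.2%, against 4.32% of all genes) and none was higher (against 4.11%). The 6 became 2 without CANA array 1 or CR array 1 and 3 without CR array 4, and 2 members were higher without CANA array 1 or CR array 5. There were 2 members without overlap that were lower in CANA (5.41%, against 1.51%) and none higher (against 1.42%). The 2 became 4 without CANA array 2 or 3 or CR array 3, and 5 without CR array 5. The comparisons share arrays. The CANA mean was below both other group means for 20 of 37 members (54.1%, against 38.6% of all genes) and above both for 5 (13.5%, against 33.5%). The median in CANA against CR was -0.08 without CANA array 1, -0.11 without CR array 1 and -0.06 without CR arrays 1 and 5.

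**Figure D1:**
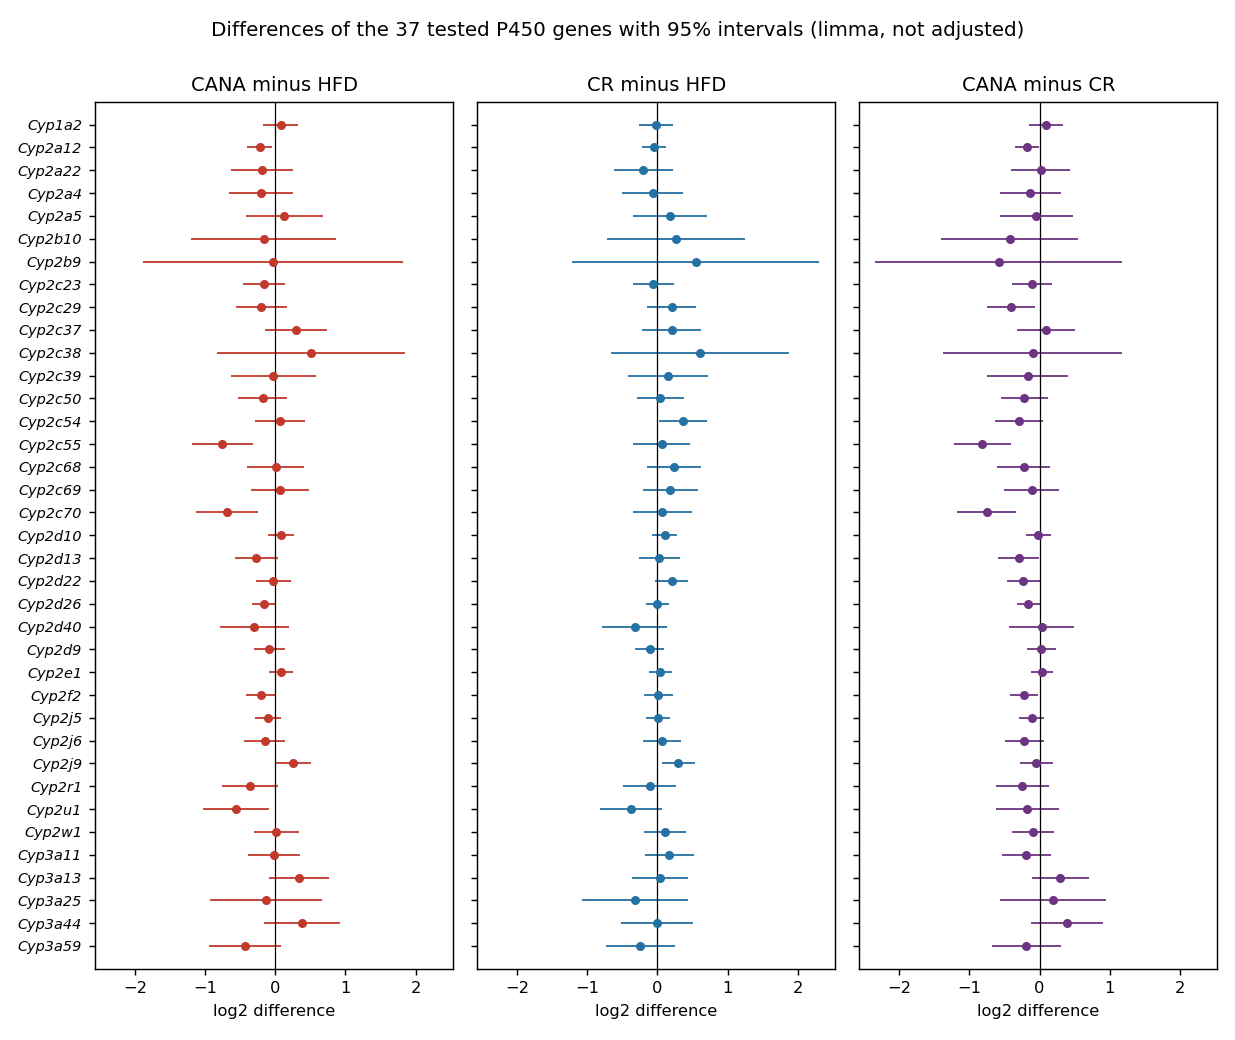
Differences between group means of the 37 tested P450 genes on the log2 scale, with 95% intervals from limma that are not adjusted for the number of genes. Cyp2c55 and Cyp2c70 lie farthest below zero in the CANA panels, at -0.75 and -0.68 against HFD and -0.81 and -0.75 against CR, and Cyp2b9 and Cyp2c38 have the widest intervals.

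Cyp2c55 oxidises arachidonic acid and is a known target of CAR and PXR. It measured 5.93, 5.97, 5.94 and 6.27 in HFD, 5.78, 5.40, 4.58 and 5.33 in CANA, and 5.91, 6.30, 5.96, 5.82 and 6.45 in CR. Every CANA array lay below every array of the other groups. The difference was -0.75 (SE 0.20, adjusted p = 0.193) against HFD, a signal 1.69-fold lower, and -0.81 (SE 0.19, adjusted p = 0.165) against CR. CANA array 3 was the lowest, and without it the differences were -0.52 and -0.58. Against HFD the difference was -0.36 among serial numbers 1 to 8 and -1.15 among 9 to 14. A second probe set of this gene, below the filter, had the opposite sign, at 0.39 against HFD and 0.50 against CR. With the mean of both probe sets the differences were -0.18 and -0.16.

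Cyp2c70 makes muricholic acids, bile acids typical of mice. It measured 12.39, 11.99, 11.32 and 11.32 in HFD, 11.50, 10.83, 10.95 and 11.01 in CANA, and 11.85, 11.69, 11.92, 12.03 and 11.64 in CR. Every CANA array lay below every CR array, while CANA array 1 lay above HFD arrays 3 and 4. The difference was -0.68 (SE 0.21, adjusted p = 0.266) against HFD and -0.75 (SE 0.20, adjusted p = 0.222) against CR. Within serial numbers 1 to 8 and 9 to 14 it was -1.03 and -0.34 against HFD, and -0.66 and -0.85 against CR. CR minus HFD was 0.07 (SE 0.20, adjusted p = 0.999), and ran from -0.07 to 0.28 with single arrays left out.

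Cyp2a12, which hydroxylates bile acids in mouse liver, had a small difference with little spread. It measured 12.40, 12.51, 12.49 and 12.58 in HFD and 12.18, 12.29, 12.22 and 12.38 in CANA, against 12.45, 12.49, 12.51, 12.45 and 12.34 in CR. CANA lay below HFD in every array and overlapped CR. The difference was -0.22 (SE 0.08, adjusted p = 0.415) against HFD and -0.18 (SE 0.08, adjusted p = 0.564) against CR.

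Cyp2d26, another gene of steady level, measured 11.85, 11.84, 11.87 and 11.93 in HFD, 11.65, 11.64, 11.83 and 11.73 in CANA, and 11.90, 11.93, 11.85, 11.88 and 11.80 in CR. Only CANA array 3 reached the range of CR. The difference was -0.16 (SE 0.08) against HFD, with an adjusted p of 0.600, and -0.16 (SE 0.08) against CR, with an adjusted p of 0.594.

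Cyp2u1, which hydroxylates long-chain fatty acids, measured 8.72, 8.37, 8.55 and 8.46 in HFD, 8.10, 8.32, 7.80 and 7.67 in CANA, and 8.09, 8.41, 8.76, 8.09 and 7.37 in CR. The CANA arrays lay below all HFD arrays, and the CR arrays spanned both groups. CANA minus HFD was -0.55 (SE 0.22, adjusted p = 0.468) and CR minus HFD was -0.38 (SE 0.21, adjusted p = 0.999). The latter was -0.18 without CR array 5 and -0.10 without CR arrays 1 and 5.

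**Figure D2:**
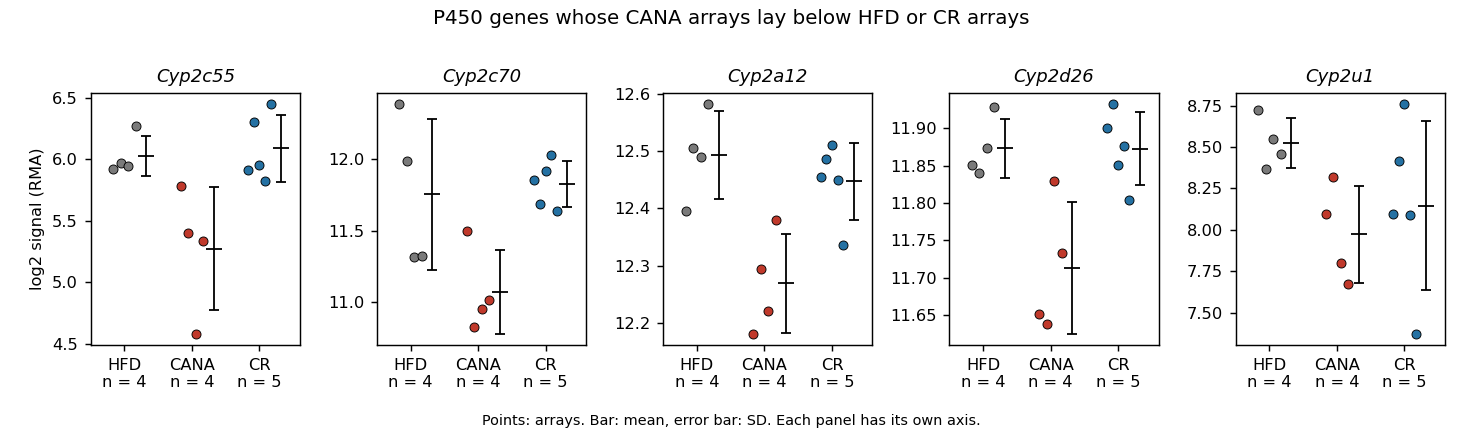
Log2 signal of Cyp2c55, Cyp2c70, Cyp2a12, Cyp2d26 and Cyp2u1 in each array of HFD (n = 4), CANA (n = 4) and CR (n = 5), with the mean and SD beside the points and a separate axis for each gene. CANA arrays lie below all HFD arrays for every gene but Cyp2c70, and below all CR arrays for Cyp2c55 and Cyp2c70.

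In subfamily 1A, Cyp1a2, which clears caffeine and is a classical AHR target, had HFD levels of 11.34 ± 0.16 (SD, n = 4), CANA levels of 11.41 ± 0.14 (n = 4) and CR levels of 11.32 ± 0.20 (n = 5). The CANA minus HFD difference was 0.08 (95% interval -0.18 to 0.33) and CANA minus CR 0.09 (adjusted p = 0.877). With single arrays left out they ran from 0.01 to 0.13 and from 0.03 to 0.15. Cyp1a1 and Cyp1b1 were below the filter.

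Subfamily 2A had 4 tested members of 4, with differences of -0.22 to 0.13 in CANA against HFD and -0.20 to 0.18 in CR against HFD. The largest of these in size was that of Cyp2a12. Cyp2a4, a steroid hydroxylase, and Cyp2a5, a coumarin hydroxylase, are near-identical copies that can share probes.

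Subfamily 2C was the largest, with 11 of 14 members tested. CANA minus CR was below zero for 10 of 11 (against 51.2% of all genes), with a median of -0.22. CR minus HFD was above zero for 10 of 11 and below for 1 (against 53.6% of all genes below), with a median of 0.19. Both counts use the same CR arrays, and genes that are close copies are not independent. CANA minus HFD was split, with 6 below zero and 5 above. Cyp2c29, an epoxygenase that CAR induces, measured 11.57, 11.78, 11.81 and 11.69 in HFD, 11.34, 11.11, 11.87 and 11.75 in CANA, and 12.07, 11.85, 11.43, 12.11 and 12.13 in CR. CANA arrays 1 and 2 were low, and CANA and CR overlapped. CANA minus CR was -0.40 (SE 0.16, adjusted p = 0.532). It was -0.27 without CANA array 2, and -0.16 with the mean of its probe sets, of which the second was below the filter. Cyp2c54 measured 9.89, 10.59, 9.97 and 10.40 in HFD, 10.32, 10.22, 10.25 and 10.33 in CANA, and 10.86, 10.69, 10.10, 10.80 and 10.44 in CR. HFD fell into a low and a high pair of arrays, which CANA lay between. CR minus HFD was 0.37 (SE 0.16, adjusted p = 0.999).

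Subfamily 2D had 6 of 9 members tested, with differences of -0.30 to 0.09 in CANA against HFD and -0.33 to 0.21 in CR against HFD. Cyp2d9, a testosterone hydroxylase known as male-biased, had a CR minus HFD of -0.11 (SE 0.10, adjusted p = 0.999), or -0.06 without CR array 5. Cyp2d40 measured 8.46, 7.75, 7.65 and 7.56 in HFD, 7.78, 7.34, 7.47 and 7.64 in CANA, and 8.04, 7.81, 7.73, 6.91 and 7.16 in CR. HFD array 1 stood highest, and without it CR minus HFD moved from -0.33 (SE 0.22, adjusted p = 0.999) to -0.12. It was -0.17 without CR array 4. Cyp2d22 had a CR minus HFD of 0.21 (SE 0.11, adjusted p = 0.999), with levels of 9.86 to 10.36 in HFD and 10.15 to 10.44 in CR. That difference was 0.12 without HFD array 1, 0.36 among serial numbers 1 to 8 and 0.06 among 9 to 14. Cyp2d13 had a CANA minus CR of -0.30 (SE 0.14, adjusted p = 0.582).

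Cyp2e1, which oxidises ethanol and acetaminophen, varied least but for Cyp2d26, with HFD levels of 13.44 ± 0.06 (SD, n = 4), CANA levels of 13.52 ± 0.05 (n = 4) and CR levels of 13.48 ± 0.07 (n = 5). For CANA against HFD it differed by 0.08 (95% interval -0.09 to 0.25, adjusted p = 0.855). Cyp2f2, the naphthalene oxidase known from periportal hepatocytes and airways, had HFD levels of 12.70 ± 0.13, CANA levels of 12.49 ± 0.09 and CR levels of 12.72 ± 0.14. CANA minus CR was -0.22 (SE 0.10, adjusted p = 0.544), and its second probe set, which was above the filter, gave -0.19.

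In subfamily 2J, which is known for enzymes that oxidise arachidonic acid, 3 of 7 members were tested. Cyp2j9 measured 6.20, 5.98, 5.87 and 5.80 in HFD, 6.18, 6.07, 6.36 and 6.25 in CANA, and 6.35, 6.31, 6.10, 6.50 and 6.03 in CR. HFD array 1 alone of its group reached the level of the others. The difference from HFD was 0.26 (SE 0.12, adjusted p = 0.548) in CANA and 0.30 (SE 0.11, adjusted p = 0.999) in CR, and both share the HFD arrays. In CANA it was 0.04 among serial numbers 1 to 8 and 0.47 among 9 to 14. Cyp2j5, with levels of 11.68 to 11.97 in HFD and 11.71 to 11.76 in CANA, had a difference of -0.11 (SE 0.09, adjusted p = 0.809), or -0.06 without HFD array 4.

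Cyp2r1, a vitamin D 25-hydroxylase, measured 6.93, 6.69, 7.21 and 6.89 in HFD, 6.23, 6.38, 6.48 and 7.21 in CANA, and 6.40, 7.01, 6.77, 7.01 and 6.91 in CR. CANA array 4 lay among the HFD arrays and the others below them. Against HFD, CANA differed by -0.36 (SE 0.19, adjusted p = 0.628), and by -0.57 without that array. Cyp2w1 lay near the limit of the filter, with a CANA minus HFD of 0.01 (SE 0.15, adjusted p = 0.989) that ran from -0.10 to 0.12 with single arrays left out.

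Subfamily 3A, the main drug oxidases and targets of PXR, had 5 of 7 members tested. Cyp3a11, the main one in mouse liver, had HFD levels of 8.93 ± 0.18 (SD, n = 4), CANA levels of 8.91 ± 0.27 (n = 4) and CR levels of 9.10 ± 0.34 (n = 5). Its CANA minus HFD difference was -0.02 (95% interval -0.39 to 0.35), and ran from -0.10 to 0.11 with single arrays left out. Cyp3a13 measured 9.25, 9.28, 9.17 and 9.86 in HFD, 9.34, 9.85, 10.04 and 9.70 in CANA, and 9.33, 9.32, 8.95, 9.69 and 9.88 in CR. HFD array 4 stood apart from its group and lay among the CANA arrays. Against HFD, CANA differed by 0.34 (SE 0.20, adjusted p = 0.677), and 0.50 without that array. The CANA minus CR difference of 0.30 became 0.18 without CR array 3 and 0.19 without CANA array 3. Cyp3a44 measured 3.68, 3.97, 3.84 and 4.21 in HFD, 3.80, 5.07, 4.04 and 4.33 in CANA, and 3.35, 3.96, 3.90, 3.79 and 4.58 in CR. CANA array 2 was the highest of all arrays. The means of Cyp3a44 were 3.92 in HFD and 3.92 in CR, below the filter limit of 3.95, and 4.31 in CANA. It thus passed the filter through CANA, the group where it was high. CANA minus HFD was 0.38 (SE 0.25, adjusted p = 0.733), or 0.13 without that array, and CANA minus CR was 0.39 (SE 0.24, adjusted p = 0.698). The latter was 0.14 without CANA array 2, 0.25 without CR array 1 and -0.01 among serial numbers 9 to 14.

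The spread between arrays of one group was wide for these genes, with a median SD of 0.31 against 0.17 over all tested genes. It ran from 0.06 for Cyp2d26 to 1.54 for Cyp2b9, and after Cyp2b9 came Cyp2c38 at 1.11 and Cyp2b10 at 0.85.

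**Figure D3:**
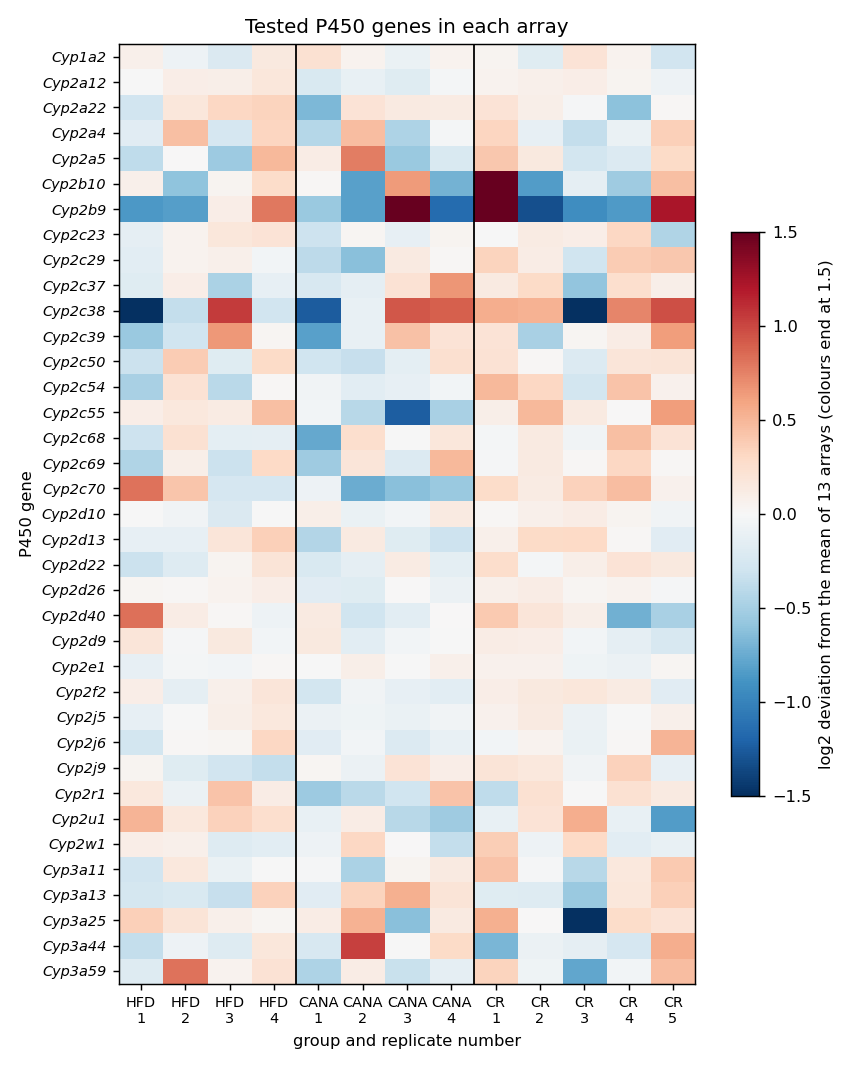
Deviation of each tested P450 gene from its mean over 13 arrays on the log2 scale, with genes in rows by subfamily and arrays in columns by group and replicate number. Colours end at 1.5 in either direction. The darkest cells lie in the rows of Cyp2b9, Cyp2b10 and Cyp2c38, and in that of Cyp3a25 in CR array 3, at 6.22.

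Subfamily 2B held the gene with the widest range. Cyp2b9, a steroid hydroxylase known as female-biased, measured 3.23, 3.26, 4.18 and 4.88 in HFD, 3.53, 3.27, 5.68 and 2.94 in CANA, and 7.70, 2.77, 3.16, 3.23 and 5.32 in CR. Each group had arrays near 3 and at least 1 array near 5 or above, and CR array 1 was highest. The means of Cyp2b9 were 3.89 in HFD and 3.85 in CANA, below the filter limit of 3.95, and 4.44 in CR. It thus passed the filter through CR, and most of its arrays were dim. CR minus HFD was 0.55 (SE 0.83, adjusted p = 0.999), and -0.27 without CR array 1. It ran from 0.32 to 0.96 with each other array left out, and was 1.30 among serial numbers 1 to 8 and -0.26 among 9 to 14, so the direction turned with the arrays used.

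Cyp2b10, the classical target of CAR, measured 4.29, 3.61, 4.26 and 4.49 in HFD, 4.24, 3.40, 4.85 and 3.50 in CANA, and 6.33, 3.37, 4.08, 3.68 and 4.66 in CR. The 4 arrays with the highest Cyp2b10 were the 4 with the highest Cyp2b9, which were CR array 1, CANA array 3, CR array 5 and HFD array 4. CANA minus HFD was -0.16 (SE 0.49, adjusted p = 0.967), and CR minus HFD was 0.26 (SE 0.46, adjusted p = 0.999). Both turned with single arrays, the first to 0.04 without CANA array 2 and 0.003 without CANA array 4, the second to -0.21 without CR array 1. They ran from -0.45 to 0.04 and from -0.21 to 0.53 in all.

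The deviations of Cyp2b9 and Cyp2b10 from their group means went together over the 13 arrays. Pearson's r was 0.943 (permutation p = 0.00025, adjusted 0.0263) and Spearman's rho was 0.846 (permutation p = 0.00195, adjusted 0.102), both two-sided and adjusted over 105 pairs of members. Without the 2 arrays farthest from the median of Cyp2b9, r was 0.823 over 11. The 105 pairs were those that held Cyp2b9, Cyp2b10 or Cyp2c38, which were picked for their wide spread in these same arrays. Pairs among the other members were not tested, so the adjusted p values do not cover them or this choice. Within the 105, Cyp2b9 and Cyp2b10 were the only pair whose adjusted p for r was under 0.05. For rho the only such pair was Cyp2c38 and Cyp2c29, and no pair passed for both measures. The pair can share probes. Among all 13308 tested genes, those most like Cyp2b9 were Cyp2b10 at an r of 0.943, Trappc12 at 0.896 and Micos10 at 0.890, as a description over the 13 arrays. Trappc12, a subunit of a vesicle tethering complex, ranged over 6.36 to 6.75, and Micos10, a part of the mitochondrial inner membrane complex MICOS, over 5.23 to 5.68.

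Male-biased liver genes outside these families were set beside Cyp2b9 after its values were seen. The 22 tested genes of that list had mean deviations of -0.38 in CR array 1, -0.38 in CANA array 3, -0.59 in CR array 5 and -0.06 in HFD array 4, and of -0.02 to 0.34 in the other 9 arrays. These 4 lowest arrays of the list were the 4 with the highest Cyp2b9. The cut at 4 arrays was narrow, with HFD array 4 at -0.06 and CANA array 4 next at -0.02. CANA array 4 had a Cyp2b9 of 2.94, at rank 12 of 13 from the top. The 13 tested female-biased genes outside the families had 0.08, 0.65, 0.69 and 0.06 in the same 4 arrays, and -0.88 to 0.31 in the others. Within the families, the male-biased Cyp2d9 and Cyp2u1 did not share this split of arrays. Their mean deviations were -0.003, -0.23, -0.54 and 0.11 in the same 4 arrays. In the others they ran from -0.27 in CANA array 4 to 0.34 in HFD array 1. The part of these genes in the values of Cyp2b9 was not tested.

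**Figure D4:**
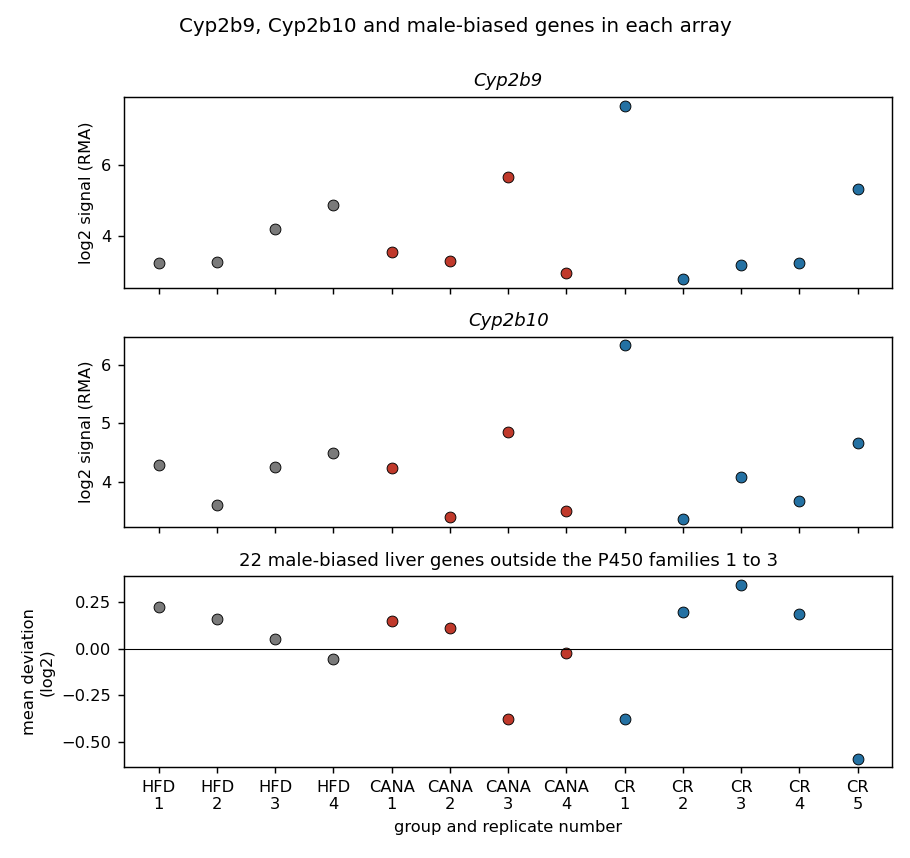
Log2 signal of Cyp2b9 and Cyp2b10 and the mean log2 deviation of 22 male-biased liver genes outside the P450 families 1 to 3, in each array by group and replicate number. CR array 1, CANA array 3 and CR array 5 have the highest Cyp2b9, at 7.70, 5.68 and 5.32, and lie lowest in the bottom panel, at -0.38, -0.38 and -0.59.

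Cyp2c38, which oxidises arachidonic acid, measured 6.38, 7.98, 9.39 and 8.05 in HFD, 7.09, 8.23, 9.27 and 9.24 in CANA, and 8.88, 8.86, 6.67, 9.07 and 9.30 in CR. HFD array 1, CR array 3 and CANA array 1 were low, and no group was uniformly high. CR minus HFD was 0.61 (SE 0.60, adjusted p = 0.999), 0.08 without HFD array 1, 1.08 without CR array 3 and 1.09 without HFD array 3. Its relative Cyp2c39, a retinoic acid hydroxylase, measured 4.19, 4.45, 5.40 and 4.78 in HFD, 3.94, 4.64, 5.19 and 4.96 in CANA, and 4.97, 4.26, 4.78, 4.87 and 5.39 in CR. The r of the deviations of both genes was 0.715 (permutation p = 0.018, adjusted 0.377 over 105 pairs), and 0.835 without the 2 arrays farthest from the median. With Cyp2c29, the rho of Cyp2c38 was 0.874 (permutation p = 0.00031, adjusted 0.0326) and the r was 0.773 (permutation p = 0.00579, adjusted 0.203), or 0.657 over 11 arrays without the 2 farthest.

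Cyp3a25 measured 8.38, 8.22, 8.10 and 8.05 in HFD, 8.14, 8.55, 7.40 and 8.16 in CANA, and 8.56, 8.03, 6.22, 8.31 and 8.23 in CR. CR array 3 was far below the rest and CANA array 3 was next. CR minus HFD was -0.32 (SE 0.36, adjusted p = 0.999), and turned to 0.09 without CR array 3. CR array 3 was also the lowest of its group for Cyp2c38, Cyp2c37 and Cyp2c29.

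**Figure D5:**
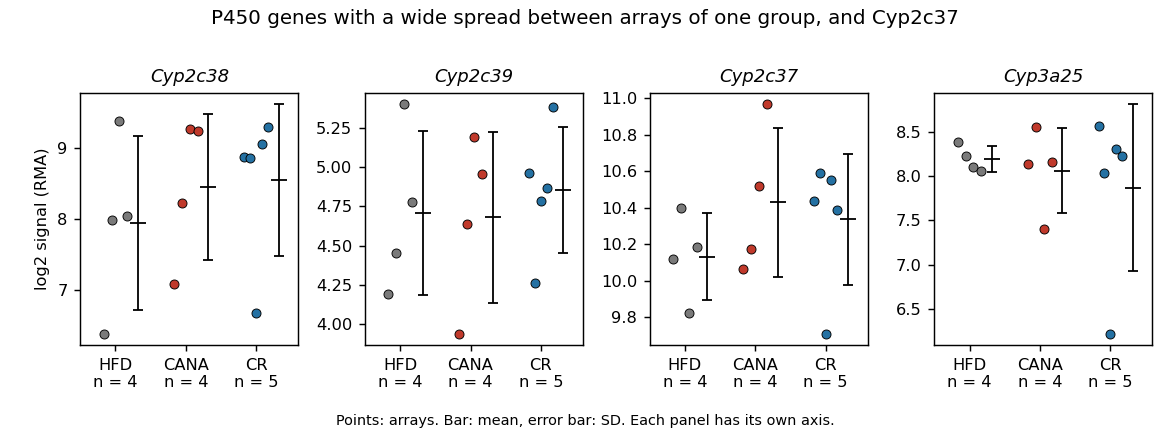
Log2 signal of Cyp2c38, Cyp2c39, Cyp2c37 and Cyp3a25 in each array of HFD (n = 4), CANA (n = 4) and CR (n = 5), with the mean and SD beside the points and a separate axis for each gene. In the CR group, array 3 is the lowest for Cyp2c38, Cyp2c37 and Cyp3a25, at 6.67, 9.71 and 6.22.

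The arrays carry a serial number in their labels, whose meaning the labels do not give, and all groups had arrays among numbers 1 to 8 and 9 to 14. Along this number, 10 of 37 members had an unadjusted p under 0.05 in limma (27.0%, against 11.9% of all genes). None passed adjustment (smallest adjusted p = 0.124 for Cyp2c39), while 0.376% of all genes did. Slopes were above zero for 23 members and below for 14. The split over all genes was not computed, so this one is not read as a trait of these genes. The slope of Cyp2c39 was 0.08 per number and that of Cyp2c38 0.14 (adjusted p = 0.261), while Cyp2d40 had -0.06 (adjusted p = 0.161) and Cyp2c70 -0.05 (adjusted p = 0.254).

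The 21 members below the filter were Cyp1a1 and Cyp1b1, 3 genes each of subfamilies 2B, 2C and 2D, 4 of 2J and 2 of 3A, and Cyp2ab1, Cyp2g1, Cyp2s1 and Cyp2t4. Signals this dim do not show that a gene is silent. Cyp2d34, at 3.92, lay just below the limit and Cyp2w1, at 4.01, just above it.

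The genes that act with these enzymes were examined in lists, and no listed gene passed an adjusted p of 0.05 in any comparison. Receptors and regulators, with 17 of 19 tested, had a median of -0.09 in CANA against HFD, -0.003 in CR against HFD and -0.05 in CANA against CR. The receptor genes themselves had differences in CANA against HFD of -0.09 (SE 0.14, adjusted p = 0.930) for Nr1i3, which encodes CAR, 0.17 (SE 0.16, adjusted p = 0.827) for Nr1i2, which encodes PXR, and 0.28 (SE 0.24, adjusted p = 0.812) for Ahr. Nr3c1, the glucocorticoid receptor, was at -0.26 (SE 0.09, adjusted p = 0.361).

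Among 13 tested redox partners and heme enzymes, the median was -0.06 in CANA against HFD, 0.04 in CR against HFD and -0.12 in CANA against CR. Hmox1, which breaks down heme, had a CANA minus HFD of 0.74 (SE 0.19, adjusted p = 0.171) and a CANA minus CR of 0.55 (SE 0.18, adjusted p = 0.377). Cyb5b, a cytochrome b5 of the outer mitochondrial membrane, had -0.50 (SE 0.18, adjusted p = 0.388) and -0.57 (SE 0.17, adjusted p = 0.295). Alas1, which starts heme synthesis, was at 0.06 (SE 0.22, adjusted p = 0.976) in CANA against HFD.

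Other target genes of CAR and PXR, with 20 of 25 tested, had medians of -0.11 in CANA against HFD, 0.15 in CR against HFD and -0.20 in CANA against CR. In the last, 15 of 20 were below zero, against 51.2% of all genes, and 5 were lower at an unadjusted p under 0.05, against 4.32% of all genes. The carboxylesterase Ces1g had a CANA minus CR of -0.90 (SE 0.21, adjusted p = 0.165), Gstt1, a glutathione transferase, -0.50 (SE 0.14, adjusted p = 0.257) and Ugt2b34, a glucuronosyltransferase, -0.39 (SE 0.11, adjusted p = 0.286). The bile acid and organic anion carrier Slco1a4 had a CANA minus HFD of 1.04 (SE 0.41, adjusted p = 0.454). The median of the list in that comparison was -0.11. The 5 tested AHR targets had medians of 0.02, 0.10 and 0.01 in the same order of comparisons.

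Pericentral genes outside the families, which mark the zone where most P450 genes are expressed, had medians of -0.12, 0.04 and -0.13 over 18 tested genes. Lect2, a secreted hepatocyte protein, had a CANA minus HFD of -0.39 (SE 0.12, adjusted p = 0.252), and Oat, the aminotransferase of ornithine, 0.38 (SE 0.14, adjusted p = 0.393). The 12 tested periportal genes had medians of 0.14, 0.06 and 0.16. Of these, 4 were higher in CANA against HFD at an unadjusted p under 0.05 in limma (against 3.63% of all genes). Pck1, the gluconeogenic carboxykinase, had a CANA minus HFD of 0.40 (SE 0.11, adjusted p = 0.185). The 14 acute phase and inflammatory genes had medians of 0.07, -0.04 and 0.10, and the 22 male-biased genes -0.12, -0.17 and 0.08. The 13 tested female-biased genes outside the families had medians of 0.40, 0.08 and 0.23. In CANA against HFD, 10 of them were above zero and 3 below (against 53.9% of all genes below). At an unadjusted p under 0.05 in limma, 2 were higher (against 3.63% of all genes). Slc22a26, a solute carrier of this list, had a CANA minus HFD of 0.57 (SE 0.15, adjusted p = 0.185).

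Hepatocyte markers had medians of -0.02, 0.01 and -0.05 in the same comparisons. The 6 Kupffer cell and macrophage markers had mean deviations of -0.59 to 0.44 in HFD, -0.20 to 0.33 in CANA and -0.71 to 0.18 in CR. Their median difference was 0.10 in CANA against HFD, -0.10 in CR against HFD and 0.15 in CANA against CR. In the last all 6 were above zero, while 51.2% of all genes were below. Endothelial markers lay between -0.23 and 0.26 in every group, with medians of -0.09, 0.03 and -0.08, and stellate cell markers between -0.30 and 0.23, with 0.04, -0.03 and 0.02. Of cholangiocyte and of T and B cell markers, 3 of 6 and 2 of 5 passed the filter. The part of these cell types in the P450 values was not tested.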

How the data were processed

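Total RNA from liver was labelled with biotin and hybridised to 13 Affymetrix mouse gene arrays, which limits the precision. The deposited values are log2 signals that the authors computed with RMA in Affymetrix Expression Console, per the submitters' processing notes, with no versions. Probe sets were named by the platform annotation (41345 in all, 23521 with 1 symbol, 1814 with several and 16010 with none). Each gene took its probe set of highest mean, and genes with means below the 40th percentile were left out. One limma 3.58.1 fit (R 4.3.3) on all 13 arrays gave two-sided tests, adjusted by Benjamini-Hochberg over 13308 genes. It was tested on simulated data. Correlations used 100000 permutations (scipy 1.17.1) and promoters were aligned with Biopython 1.88. The rule named members that led a subfamily or a comparison, did not overlap or varied most, up to 4 genes a list, and the 3 genes most like the member of widest range. Members and lists were chosen with earlier results of these data known. Lepr and Igf1 left the male-biased list after results were seen. Alternatives changed the filter, normalization, variance model, probe sets, arrays and covariates. Same-numbered replicates had deviations that correlated at -0.15 to 0.30, so they were not treated as pairs, and same-numbered arrays also had neighbouring serial numbers.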

Additional observations from a re-analysis of the deposited data

Results flagged for a closer look

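In 9 of 111 sets of arrays, each 1 member in 1 group, 1 array stood far from the others of its group by Dixon's ratio at 95%. Chance flags about 1 in 20 such sets if values are normally distributed. The share of sets flagged over all tested genes was not computed, and the sets share arrays. The count is therefore not read as a trait of these genes. CR array 3 was low for Cyp2c37 at 9.71 (others 10.39 to 10.59), for Cyp2c38 at 6.67 (others 8.86 to 9.30) and for Cyp3a25 at 6.22 (others 8.03 to 8.56). CR array 5 was low for Cyp2f2 at 12.48 (others 12.74 to 12.82) and high for Cyp2j6 at 7.95 (others 7.33 to 7.48). HFD array 4 was high for Cyp2c55 at 6.27 (others 5.93 to 5.97) and for Cyp3a13 at 9.86 (others 9.17 to 9.28). Cyp2a22 was low in CANA array 1 at 4.61 (others 5.41 to 5.49) and in CR array 4 at 4.66 (others 5.27 to 5.49).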

How the results depend on the processing

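Under 29 alternatives no P450 member was called in any comparison. Of 700 values of 25 differences of named members, 696 kept their direction. Many of these values could not turn. A change of the filter or variance model leaves a difference of group means as it was. So does leaving out an array of the group that is not compared. The count of 696 is thus no measure of how stable the differences are. These 25 were picked as the strongest in their comparison, with Cyp2b9 and Cyp2c38 added for CR against HFD. CR minus HFD of Cyp2b9 turned to -0.258 in serial numbers 9 to 14, to -0.836 without CR arrays 1 and 5, and ran from -0.27 to 0.96 when each array was left out. CANA minus CR of Cyp3a44 turned to -0.0053 in serial numbers 9 to 14. Ranges over a subfamily and differences of genes in the lists were not checked by leaving arrays out. Outside the 25, some other printed differences of named members turned direction when single arrays were left out. In CR against HFD these were those of Cyp2b10, Cyp3a25 and Cyp2c70, and in CANA against HFD those of Cyp2b10, Cyp3a11 and Cyp2w1. The adjusted p of Cyp2c55 ran from 0.068 to 0.905 against HFD and from 0.054 to 0.819 against CR. The median member difference of CANA against CR was -0.0586 in serial numbers 9 to 14 and -0.0557 without CR arrays 1 and 5, and ran from -0.21 to -0.08 when each array was left out. The 22 genes called in CANA against HFD became 12 without a filter, 14 with a filter at the 20th percentile, 56 at an adjusted p of 0.10, 40 with the serial number as a covariate, 46 with the serial-number set as a term, 2 in serial numbers 1 to 8, 0 in 9 to 14, and 3 to 38 when each array was left out. The 20 of CANA against CR became 34 at 0.10, 5 in serial numbers 1 to 8, 0 in 9 to 14, and 7 to 23 when each array was left out. CR against HFD had 1 call with a replicate block, with the serial number as a covariate and with the serial-number set as a term. This 1 call was no P450 member, and the replicate block called no member in any comparison. The cause of these changes was not tested, beyond fewer arrays in the serial-number sets. The set term and the fit without CR arrays 1 and 5 were chosen after seeing the data.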
